A study of Mus musculus with 12 samples.

Results

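The genes described here are the nuclear genes for subunits and assembly factors of respiratory complex I in mouse. They were chosen by name and biotype, as every protein-coding gene of the GENCODE M21 annotation whose symbol starts with Nduf, which gave 46 genes. Of these, 38 are treated as subunits (the Ndufa, Ndufab, Ndufb, Ndufc, Ndufs and Ndufv genes) and 8 are assembly factors (the Ndufaf genes). The AAV table listed 45 of them among 13178 genes, and the ribose table listed all 46 among 21650 genes. The gene listed only in the ribose table was Ndufa4l2, at 0.314 FPKM in Vehicle replicate 1, 0.254 FPKM in Ribose replicate 2 and 0 in the other libraries. It lay under the filter of a mean of 1 FPKM and was not tested, so 37 subunit genes and 8 assembly factor genes were tested in each experiment.

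Complex I takes electrons from NADH, passes them along a chain of iron-sulfur clusters to ubiquinone, and uses the energy to pump protons across the inner mitochondrial membrane. Its arm in the matrix holds the N module, where NADH is oxidised, and the Q module, where ubiquinone is reduced, while the membrane arm has a proximal and a distal part. Its 7 core nuclear subunits, which bacteria share, carry the chemistry, the accessory subunits surround them, and further membrane subunits are encoded by mitochondrial DNA (the mt-Nd genes). The assembly factors bind, modify or hold parts of the complex while it is built, and are not part of the finished enzyme. Sensory neurons, which maintain long axons, depend on such respiration for much of their ATP.

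RNA came from L4-6 dorsal root ganglia, which hold the cell bodies of sensory neurons, of C57BL/6J mice aged 8 weeks, labelled as sciatic ganglion neurons and taken 72 h after SCI (spinal cord injury). The AAV experiment used adeno-associated virus delivered through the sciatic nerve for 4 weeks. It carried either transketolase, an enzyme of the non-oxidative pentose phosphate pathway (AAV-TKT), or, as control, green fluorescent protein (AAV-GFP). In the ribose experiment the mice received Vehicle or 10% ribose, a sugar that can enter that pathway. All mice were injured and each group held 3 libraries, so no uninjured level is given here, and which promoter drove the viral transgenes is likewise not given in the sources used. Whether replicate libraries stem from different mice is not said, and p-values then measure only the spread between these samples. Values are FPKM (fragments per kilobase of transcript and per unit of library size), in 1 deposited table per experiment. Their totals per library were 413635 to 456084 FPKM in the AAV table and 510551 to 551369.5 FPKM in the ribose table. Counts and depth were not among the values used. Of the listed genes, 5.76% to 11.0% were at 0 in the Vehicle libraries, 11.5% to 14.5% in the Ribose libraries and 0.372% to 0.607% in the AAV table. All 13178 genes listed in the AAV table had a mean of at least 1 FPKM, against 13804 of the 21650 in the ribose table. The shares at 0 are therefore not comparable between the tables.

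Tkt, the gene carried by the virus, stood at 106, 101.7 and 98.1 FPKM in AAV-GFP and 223, 259 and 262 FPKM in AAV-TKT, and it rose (log2 change 1.27, limma adjusted p = 0.00540). Markers of neurons were abundant in all libraries: the 10 listed genes summed to 6846 to 7798 FPKM in AAV-GFP, 8197 to 9202 in AAV-TKT, 7142 to 8598 in Vehicle and 7208 to 7703 in Ribose. The libraries also held other cells: the 8 satellite glia markers summed to 606 to 1889.9 FPKM over both tables. In bulk RNA, fewer cells of a type and less RNA per cell cannot be told apart.

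Complex I subunits had a higher median FPKM than the assembly factors in both control groups, with overlapping ranges. In AAV-GFP the mean FPKM of the 37 subunit genes ran from 21.8 (Ndufb10) to 267 (Ndufa4), with a median of 64.3, while the 8 assembly factors ran from 5.39 (Ndufaf6) to 23.2 (Ndufaf7), with a median of 12.2. In Vehicle the subunits ran from 14.2 (Ndufb4) to 263 FPKM (Ndufa4), with a median of 74.4, and the assembly factors from 4.49 (Ndufaf2) to 28.004 (Ndufaf7), with a median of 16.5. The order of the members was alike in both tables (Spearman's rho of the AAV-GFP and Vehicle means 0.92 over 45 genes, a description across genes of one tissue). Ndufa4 had the highest FPKM of the set, at 279, 262 and 259 FPKM in AAV-GFP and 248, 290.2 and 282 FPKM in AAV-TKT, and at 232, 224 and 333 FPKM in Vehicle and 233, 193 and 238 FPKM in Ribose. Its product is named after complex I but belongs with cytochrome c oxidase. Without it, Ndufb8 (a distal membrane arm subunit) led with 118 ± 10.4 FPKM in AAV-GFP and 145 ± 11.5 in Vehicle (SD, n = 3). Ndufa11 of the proximal arm came next, at 103.2 ± 8.77 and 129.7 ± 21.6 FPKM (SD, n = 3). The library values of that pair overlapped in both control groups. Replicates of a gene spread little: the median coefficient of variation of subunits was 9.00% in AAV-GFP and 11.9% in Vehicle.

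**Figure D1:**
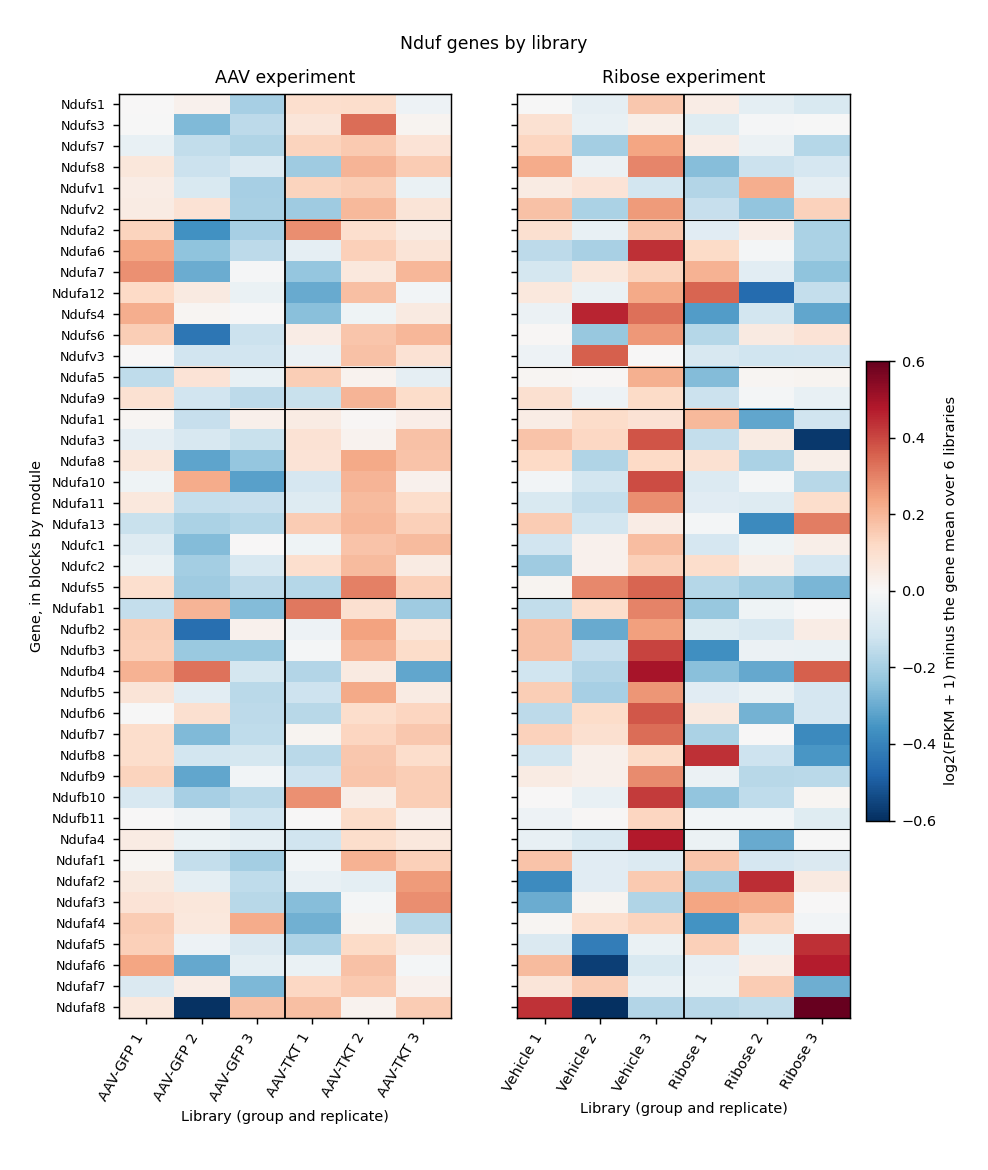
Deviation of log2(FPKM + 1) from the gene's mean over the 6 libraries of its table, for 44 Nduf genes (rows, in blocks by module) and 12 libraries (columns), with colour from blue (lower) to red (higher), which saturates at 0.6 either way. AAV-TKT replicate 2 and Vehicle replicate 3 were the libraries in which most subunit genes were highest, 22 and 27 of all 37.

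The first comparison asked how complex I genes stood in ganglia given transketolase against ganglia given the GFP control virus. Most subunit genes had slightly higher values in AAV-TKT, and none passed the test. The log2 change was above 0 for 34 of 37 subunit genes, against 53.7% of all genes tested, with a median of 0.13 against 0.014 for all genes. In 9 subunit genes the lowest AAV-TKT library lay above the highest AAV-GFP library and in none were the groups separated the other way, where 11.3% of all genes were separated upward and 7.2% downward. Of the 45 members, 0 passed a limma adjusted p of 0.05, where 0.0152% of all genes did. At an unadjusted p under 0.05 there were 10 members with higher and 1 with a lower value, against 6.23% and 4.36% of all genes.

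The 7 core subunits all had positive log2 changes, with a median of 0.16. Ndufs7, which carries the last iron-sulfur cluster before ubiquinone, was at 77.8, 72.4 and 70.6 FPKM in AAV-GFP and 88.0, 89.6 and 85.2 FPKM in AAV-TKT. Its 3 AAV-TKT libraries lay above all AAV-GFP libraries, with a log2 change of 0.25 (SE 0.0658, 95% interval 0.095 to 0.40, limma adjusted p = 0.378). Ndufs3, a scaffold of the early Q module, was at 70.7, 58.8 and 63.5 FPKM in AAV-GFP and 74.5, 89.7 and 71.8 FPKM in AAV-TKT. This gene was also higher in every AAV-TKT library (log2 change 0.28, limma adjusted p = 0.437).

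In Ndufs1, Ndufv1, Ndufv2 and Ndufs8 the groups overlapped. Ndufs1, the largest subunit of the electron input arm, was at 72.7, 73.9 and 63.2 FPKM in AAV-GFP and 78.0, 78.1 and 71.1 FPKM in AAV-TKT. Ndufv1, which binds NADH and the flavin, was at 90.8, 82.4 and 76.6 FPKM in AAV-GFP and 96.5, 97.7 and 85.6 FPKM in AAV-TKT. Ndufv2, which holds an iron-sulfur cluster beside it, was at 97.1, 99.6 and 81.7 FPKM in AAV-GFP and 80.7, 107 and 98.8 FPKM in AAV-TKT. The lowest AAV-TKT library of Ndufv2 lay below all AAV-GFP libraries. Ndufs8, an iron-sulfur subunit of the Q module, was at 54.0, 47.0 and 48.6 FPKM in AAV-GFP and 44.2, 59.6 and 57.4 FPKM in AAV-TKT, again with AAV-TKT replicate 1 lowest of all. The log2 changes of these genes were 0.12, 0.16, 0.039 and 0.096, with limma adjusted p between 0.526 and 0.926, and that of Ndufv2 turned negative with equal totals per library, with quantile normalization and with protein-coding genes alone.

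The largest positive estimates lay in the membrane arm. All 9 proximal arm genes had positive log2 changes (median 0.19) and 4 of them did not overlap between groups. Over all genes tested, 53.7% had positive changes and 11.3% were separated upward. Ndufa13, also known as GRIM-19, was at 28.1, 27.1 and 27.4 FPKM in AAV-GFP and 34.6, 35.7 and 34.3 FPKM in AAV-TKT. It had the smallest p of the set, with all AAV-TKT values above all AAV-GFP values and a log2 change of 0.33 (SE 0.0597, 95% interval 0.19 to 0.47, limma adjusted p = 0.284). Ndufa8, an accessory subunit on the intermembrane space side, was at 70.8, 54.0 and 57.4 FPKM in AAV-GFP and 71.5, 79.3 and 76.1 FPKM in AAV-TKT (log2 change 0.32). Its lowest AAV-TKT value was just above its highest AAV-GFP value. Ndufc2 was at 74.8, 66.6 and 72.0 FPKM in AAV-GFP and 82.7, 87.9 and 79.6 FPKM in AAV-TKT (log2 change 0.23). Ndufa3 was at 90.2, 87.5 and 85.3 FPKM in AAV-GFP and 99.4, 94.9 and 106 FPKM in AAV-TKT (log2 change 0.19). Both were separated, and the limma adjusted p of Ndufa8, Ndufc2 and Ndufa3 lay between 0.402 and 0.425. The other proximal arm genes, Ndufa1, Ndufa10, Ndufa11, Ndufc1 and Ndufs5, had changes from 0.064 to 0.22 with overlapping groups.

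In the distal arm 10 of 11 genes had positive changes (median 0.13). Ndufb10, at 22.7, 21.1 and 21.6 FPKM in AAV-GFP and 29.7, 25.0 and 27.0 FPKM in AAV-TKT, was separated with a log2 change of 0.30 (SE 0.0808, limma adjusted p = 0.378). Ndufb11 was also separated, by a narrow margin, at 34.2, 33.7 and 31.4 FPKM in AAV-GFP and 34.2, 37.0 and 34.7 FPKM in AAV-TKT. The exception was Ndufb4, at 28.2, 30.7 and 22.5 FPKM in AAV-GFP and 21.4, 25.2 and 19.3 FPKM in AAV-TKT, whose AAV-TKT values were mostly the lower ones and overlapped those of AAV-GFP (log2 change -0.29, limma adjusted p = 0.498). Ndufab1, the mitochondrial acyl carrier protein, had coefficients of variation of 17.5% in AAV-GFP and 18.3% in AAV-TKT, and a log2 change of 0.13.

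The N module accessory genes were the most mixed of the subunit groups, with 5 of 7 positive and a median of 0.11, and none was separated. The 5 positive changes ran from 0.020 (Ndufa7) up to 0.28 (Ndufs6) and 0.29 (Ndufa2). Ndufs4, whose loss causes a Leigh-like brain disease in mice, was at 37.1, 32.0 and 31.7 FPKM in AAV-GFP and 26.5, 31.2 and 33.0 FPKM in AAV-TKT (log2 change -0.15, limma adjusted p = 0.604). Ndufa12 was at 46.2, 44.1 and 41.3 FPKM in AAV-GFP and 34.3, 48.2 and 42.0 FPKM in AAV-TKT (log2 change -0.090). In both genes AAV-TKT replicate 1 was the lowest library, and the others overlapped. The 2 Q module accessory genes, Ndufa5 and Ndufa9, had changes of 0.075 and 0.12 with overlapping groups, and Ndufa4 a change of 0.034, which turned negative with equal totals, quantile normalization and protein-coding genes alone.

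The 8 assembly factors were mixed in AAV-TKT: 6 had positive and 2 negative log2 changes, with a median of 0.093. Of the 8, only 1 was separated, downward, where 7.2% of all genes were separated downward. This was Ndufaf4, which pairs with Ndufaf3 on the early Q module, at 9.36, 8.73 and 9.87 FPKM in AAV-GFP and 6.62, 8.43 and 7.29 FPKM in AAV-TKT. Its log2 change was -0.29 (SE 0.101, 95% interval -0.53 to -0.056, limma adjusted p = 0.415). Its partner Ndufaf3 was at 18.5, 18.3 and 15.5 FPKM in AAV-GFP and 14.5, 17.3 and 21.4 FPKM in AAV-TKT and showed no such separation (log2 change 0.0098, and below 0 under 5 of the scalings and corrections tried).

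Ndufaf1, which works with Ecsit, Acad9 and Tmem126b on the membrane arm, was at 16.6, 14.8 and 14.1 FPKM in AAV-GFP and 16.2, 19.1 and 18.2 FPKM in AAV-TKT. Its groups overlapped through AAV-GFP replicate 1 (log2 change 0.22, limma adjusted p = 0.468). Ndufaf7, an arginine methyltransferase, was at 23.4, 25.7 and 20.5 FPKM in AAV-GFP and 27.2, 27.9 and 25.3 FPKM in AAV-TKT, with 1 AAV-TKT library inside the AAV-GFP range (log2 change 0.21). Ndufaf8, which binds Ndufaf5, was at 10.4, 6.19 and 11.2 FPKM in AAV-GFP and 11.3, 10.0 and 11.1 FPKM in AAV-TKT, where AAV-GFP replicate 2 stood low (log2 change 0.24, and -0.0010 without that library). Ndufaf2, which holds the place of Ndufa12 during assembly, was at 9.46, 8.66 and 8.06 FPKM in AAV-GFP and 8.74, 8.67 and 11.0 FPKM in AAV-TKT. Ndufaf5, which hydroxylates an arginine of Ndufs7, was at 18.9, 16.6 and 15.9 FPKM in AAV-GFP and 14.9, 18.5 and 17.6 FPKM in AAV-TKT. These genes and Ndufaf6, at 6.67, 4.25 and 5.25 FPKM in AAV-GFP and 5.33, 6.35 and 5.45 FPKM in AAV-TKT, overlapped between groups, with changes of 0.10, -0.013 and 0.085.

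**Figure D2:**
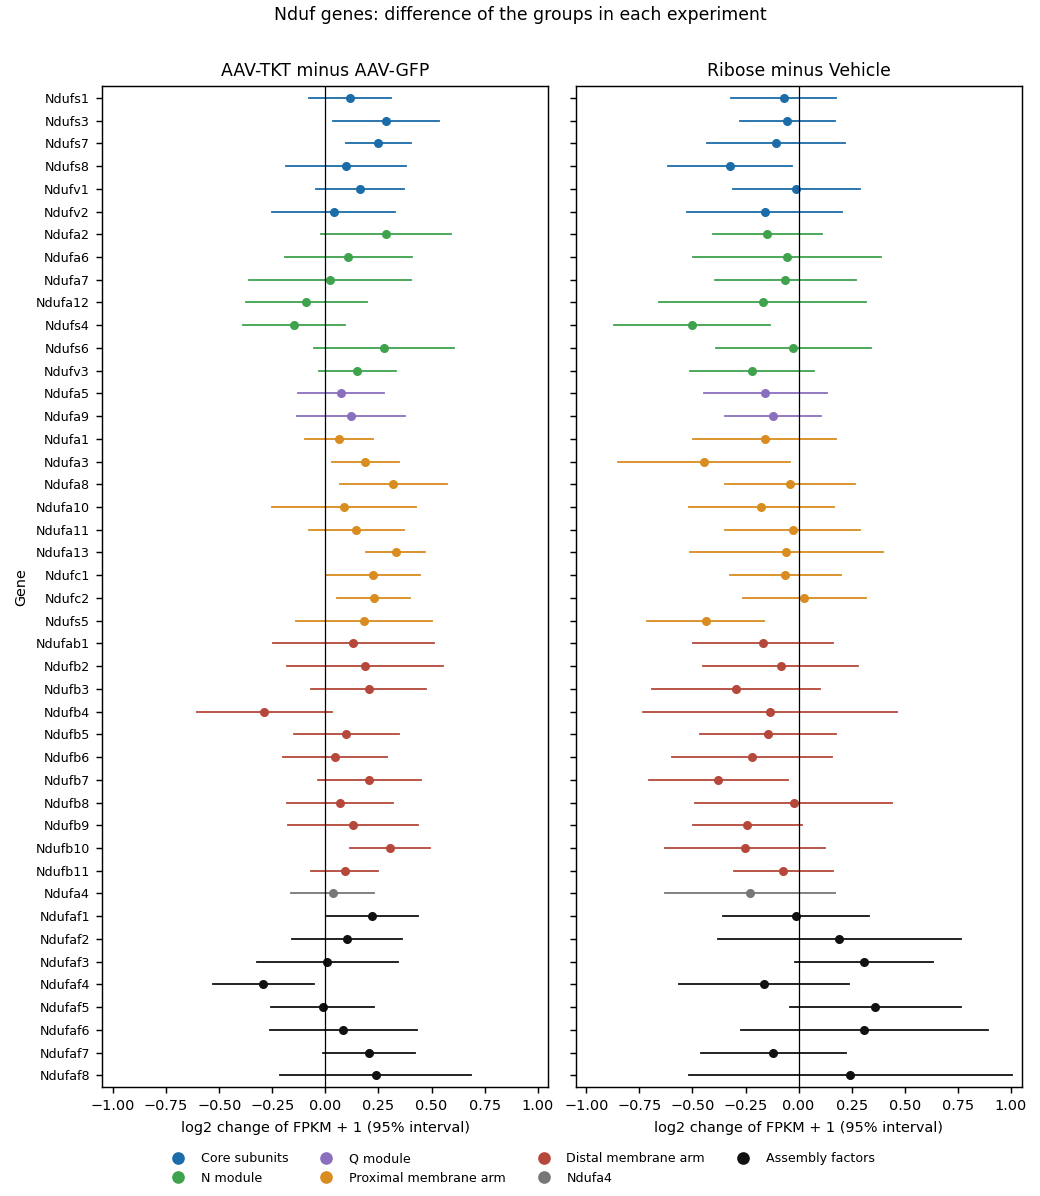
Log2 change of FPKM + 1 (point) with its 95% interval from limma (line) for 44 Nduf genes, coloured by module, for AAV-TKT minus AAV-GFP (left) and Ribose minus Vehicle (right). On the left 33 of the 36 subunit genes drawn lie right of 0, on the right 35 of 36 lie left of 0, and 5 of the 8 assembly factors lie right of 0 on the right.

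The AAV differences varied with single libraries. The median deviation of the 37 subunit genes from their gene means was 0.050, -0.13 and -0.15 in AAV-GFP and -0.028, 0.17 and 0.076 in AAV-TKT, so the groups overlapped. AAV-TKT replicate 2 held the highest value of 22 subunit genes, and AAV-GFP replicates 2 and 3 held the lowest of 17 and 11. AAV-TKT replicate 2 also had the highest FPKM total of the AAV libraries (456084), and AAV-GFP replicates 2 and 3 the lowest (414690 and 413635). With equal totals per library the subunit median was 0.063, with 29 of 37 positive. The part of the totals in the subunit values was not tested. Without AAV-TKT replicate 2 the subunit median was 0.086, and without AAV-GFP replicate 1 or AAV-TKT replicate 1 it was 0.21 and 0.20. For the assembly factors the same median deviations were 0.074, -0.046 and -0.12 in AAV-GFP and -0.042, 0.069 and 0.095 in AAV-TKT.

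Markers of cell types also differed between these groups. For neuron markers the median log2 change was 0.21, 8 of 10 were positive, 6 were separated upward and 1 downward (11.3% and 7.2% of all genes were), and their median deviations were -0.049, -0.054 and -0.20 in AAV-GFP and 0.060, 0.20 and 0.044 in AAV-TKT. The 11 neutrophil markers were all lower without overlap (median -2.12, summed FPKM 98.3 to 266 against 20.2 to 32.8), as were the 6 measured red cell markers (median -1.64, 113 to 476 against 71.9 to 94.4). Satellite glia markers had a median of -0.33 (1339.6 to 1602 against 984 to 1485 FPKM), the 7 measured Schwann cell markers a median of -0.32 (362 to 391 against 309.9 to 337) and the 6 measured macrophage markers a median of -0.54 (35.7 to 49.0 against 12.8 to 18.9). The 6 measured fibroblast markers were all negative with a median of -0.50 (53.5 to 116 against 40.8 to 58.5 FPKM), and Rgs5, the only endothelial or mural marker measured, was separated downward (log2 change -0.57). No marker passed the limma test. Their part in the complex I values was not tested.

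The second comparison asked the same of ribose against vehicle. Here the subunit genes had lower values in the treated group, and again none passed the test. The log2 change was below 0 for 36 of 37 subunit genes, against 55.2% of all genes tested, with a median of -0.14 against -0.023 for all genes. The exception was Ndufc2, at 68.7, 81.4 and 88.4 FPKM in Vehicle and 85.9, 81.9 and 74.5 FPKM in Ribose (log2 change 0.027, negative after removal of a trend with gene length). In 7 subunit genes every Ribose library lay below every Vehicle library and in none above, where 5.35% of all genes were separated downward and 4.28% upward. Of the 45 members, 0 passed a limma adjusted p of 0.05, where 0.00724% of all genes did. At an unadjusted p under 0.05 there were 5 members, all lower, against 1.99% of all genes lower and 2.8% higher.

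Ndufs5, a proximal arm subunit on the intermembrane space side, was at 71.0, 85.7 and 89.6 FPKM in Vehicle and 62.1, 60.5 and 57.7 FPKM in Ribose. All 3 Ribose values were close together and under the lowest Vehicle value, with a log2 change of -0.44 (SE 0.117, 95% interval -0.71 to -0.16, limma adjusted p = 0.897). Ndufs4 of the N module was at 31.1, 44.1 and 40.4 FPKM in Vehicle and 25.1, 29.5 and 25.5 FPKM in Ribose. It had the largest change of the set, -0.50 (SE 0.156, limma adjusted p = 0.957), with no overlap. Ndufa3 was at 80.8, 78.2 and 93.4 FPKM in Vehicle and 64.9, 74.3 and 47.7 FPKM in Ribose, with Ribose replicate 3 far below the rest (log2 change -0.45, limma adjusted p = 1.000). Ndufb7 of the distal arm was at 36.5, 35.3 and 41.8 FPKM in Vehicle and 28.8, 33.1 and 25.0 FPKM in Ribose (log2 change -0.38, SE 0.140). Ndufb9 was at 81.2, 80.2 and 95.6 FPKM in Vehicle and 76.5, 69.7 and 70.1 FPKM in Ribose (log2 change -0.24). Ndufv3, the small N module subunit, was at 100.8, 132 and 103.2 FPKM in Vehicle and 96.2, 94.7 and 94.9 FPKM in Ribose (log2 change -0.22). These genes were separated as well.

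Ndufs8 was the only separated core subunit, at 51.8, 43.1 and 54.5 FPKM in Vehicle and 36.8, 40.4 and 41.2 FPKM in Ribose (log2 change -0.32, limma adjusted p = 1.000). All 7 core subunits were negative, with a median of -0.076, where 55.2% of all genes were negative and 5.35% separated downward. Ndufs7 was at 90.3, 71.6 and 97.7 FPKM in Vehicle and 85.4, 80.7 and 73.2 FPKM in Ribose. Ndufs3 was at 63.2, 57.4 and 60.8 FPKM in Vehicle and 56.4, 59.0 and 59.3 FPKM in Ribose. In both genes, which were separated upward in AAV-TKT, the Ribose range overlapped the Vehicle range (log2 changes -0.11 and -0.053, the last at 0.00031 with protein-coding genes alone). Ndufs1 was at 63.3, 61.0 and 71.0 FPKM in Vehicle and 65.4, 60.9 and 59.4 FPKM in Ribose. Ndufv1 was at 108, 110.0 and 96.2 FPKM in Vehicle and 91.9, 121 and 100.1 FPKM in Ribose. Ndufv2 was at 99.2, 76.6 and 104.6 FPKM in Vehicle and 79.4, 74.2 and 96.4 FPKM in Ribose. Their groups overlapped too (log2 changes -0.070, -0.011 and -0.16), and the change of Ndufv1 was above 0 under 4 of the scalings and corrections tried.

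By module, all 7 N module accessory genes were negative (median -0.15), as were both Q module genes (-0.16 and -0.12), all 11 distal arm genes (median -0.17) and 8 of 9 proximal arm genes (median -0.063). Ndufa4 had a change of -0.23 with overlapping groups. Ndufa13, which led in AAV-TKT, was at 19.6, 16.1 and 18.1 FPKM in Vehicle and 17.3, 13.2 and 21.9 FPKM in Ribose, and Ndufb10 was at 25.3, 24.4 and 34.1 FPKM in Vehicle and 21.3, 22.6 and 25.4 FPKM in Ribose. Both overlapped (log2 changes -0.058 and -0.25).

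The assembly factors were mixed with ribose: 5 of 8 had positive log2 changes, against 44.8% of all genes, with a median of 0.22 against -0.023. Of the 8, 1 was separated, upward, where 4.28% of all genes were separated upward. Of the 6 whose exons overlap no other gene, 3 were positive and 3 negative. Ndufaf5 was at 20.4, 16.1 and 21.1 FPKM in Vehicle and 24.1, 21.1 and 29.8 FPKM in Ribose, separated upward (log2 change 0.36, SE 0.172, 95% interval -0.042 to 0.76, limma adjusted p = 1.000). Its lowest Ribose value lay only just above its highest Vehicle value. Ndufaf8, its binding partner, was at 24.8, 11.4 and 15.9 FPKM in Vehicle and 16.1, 16.3 and 29.6 FPKM in Ribose, with Vehicle replicate 1 and Ribose replicate 3 high and the rest lower (log2 change 0.24, SE 0.325). Ndufaf3 was at 17.8, 22.5 and 19.4 FPKM in Vehicle and 26.3, 26.02 and 22.2 FPKM in Ribose, with Ribose replicate 3 just below the highest Vehicle library (log2 change 0.31, limma adjusted p = 1.000). Ndufaf6 was at 8.63, 4.70 and 6.91 FPKM in Vehicle and 7.13, 7.68 and 10.7 FPKM in Ribose (log2 change 0.31). Ndufaf2 was at 3.47, 4.52 and 5.47 FPKM in Vehicle and 4.02, 6.87 and 5.01 FPKM in Ribose (log2 change 0.19). These low genes were spread widely within groups, with coefficients of variation of 29.2% and 22.3% in Vehicle.

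The remaining assembly factors had negative values. Ndufaf4 was at 10.2, 10.9 and 11.2 FPKM in Vehicle and 7.67, 11.2 and 9.96 FPKM in Ribose, with the groups overlapping through Ribose replicate 2 (log2 change -0.16), so its estimate was below 0 in both experiments. Ndufaf7 was at 28.2, 29.9 and 25.9 FPKM in Vehicle and 26.1, 29.9 and 21.7 FPKM in Ribose (log2 change -0.12). Ndufaf1 was at 17.5, 14.7 and 14.6 FPKM in Vehicle and 17.5, 14.4 and 14.5 FPKM in Ribose (log2 change -0.013, above 0 under 4 of the scalings and corrections tried). The assembly factor median was 0.049 without Vehicle replicate 2 and 0.088 without Ribose replicate 3.

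**Figure D3:**
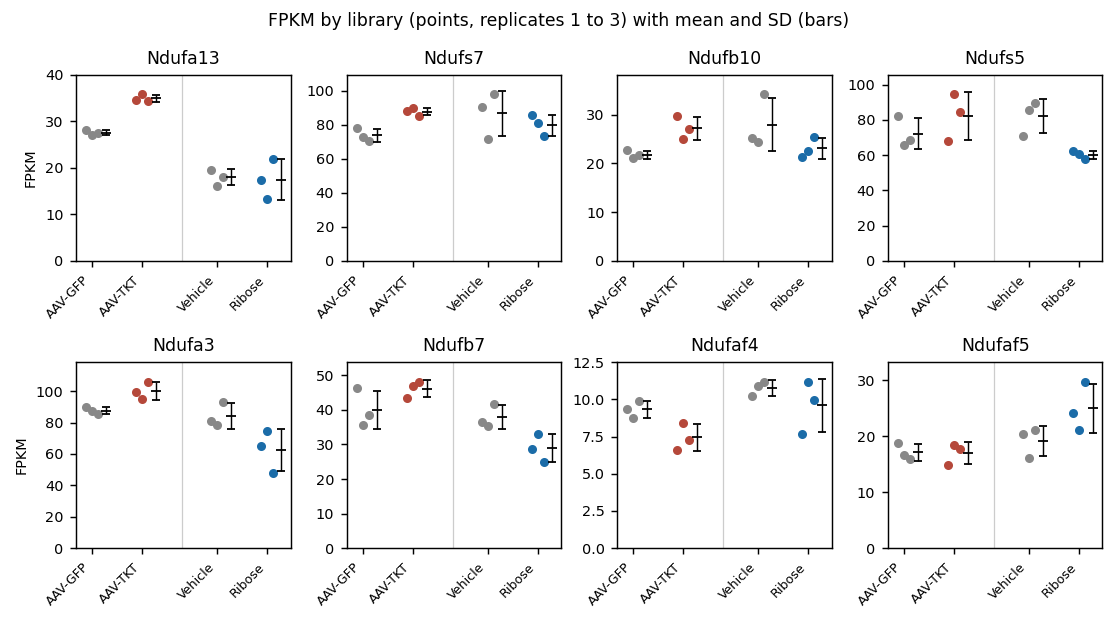
FPKM of 8 Nduf genes in each library (points, replicates 1 to 3 from left to right) with the group mean and SD (black bar), for AAV-GFP, AAV-TKT, Vehicle and Ribose, each axis starting at 0. Ndufa13, Ndufs7 and Ndufb10 show AAV-TKT above AAV-GFP without overlap, Ndufs5, Ndufa3 and Ndufb7 show Ribose below Vehicle without overlap, Ndufaf4 is lower in AAV-TKT and Ndufaf5 is higher in Ribose.

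Vehicle replicate 3 carried most of the subunit difference. The median deviation of the subunit genes was 0.018, -0.040 and 0.25 in Vehicle and -0.075, -0.064 and -0.091 in Ribose. Every Ribose library thus lay below every Vehicle library, the nearest pair by a narrow margin. Vehicle replicate 3 held the highest value of 27 of the 37 genes. Without it the subunit median was -0.049, with 28 of 37 negative. It was also the library with the smallest share of genes at 0 (5.76%), the highest neuron marker deviation (0.15, against -0.098 to 0.040 in the other libraries) and the smallest share of FPKM in the non-coding RNA Rn7s2 (18.7%, against 22.4% to 26.7%). The part of these in the subunit values was not tested. For the assembly factors the deviations were 0.041, -0.070 and -0.063 in Vehicle and -0.045, 0.088 and 0.028 in Ribose, so the groups overlapped, with Vehicle replicate 3 among the low ones. The subunit score minus the assembly factor score was -0.023, 0.030 and 0.31 in Vehicle and -0.030, -0.15 and -0.12 in Ribose, so every Ribose library lay below every Vehicle library, the nearest pair by a narrow margin. In the AAV experiment the same difference was -0.024, -0.083 and -0.033 in AAV-GFP and 0.014, 0.098 and -0.019 in AAV-TKT, with the AAV-TKT libraries above all AAV-GFP libraries, again narrowly.

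Marker lists in the ribose experiment showed no separation of the groups in neurons (median -0.033, 4 of 10 positive). Satellite glia markers had a median of -0.71, with 7 of 8 negative and summed FPKM of 1013 to 1889.9 in Vehicle against 606 to 1285 in Ribose. The 7 tested Schwann cell markers had a median of -0.36, and all 8 listed ones summed to 449 to 498 FPKM against 390.0 to 412 FPKM. Fibroblast markers had a median of 0.21 (4 of 6 positive), the tested endothelial and mural markers -0.29 (1 of 5 positive, Kcnj8, at 0.96 and separated upward), macrophage markers -0.21 (1 of 3), neutrophil markers -0.16 (3 of 9) and red cell markers -0.050 (2 of 4). Acta1, the only skeletal muscle marker tested, had a log2 change of 1.45 with overlapping groups. Ribose replicate 2 stood apart in several of these lists, with the lowest median deviation for satellite glia (-1.33), fibroblasts (-0.99), neutrophils (-1.63) and red cells (-2.35). Without that library the subunit median was -0.12, with 31 of 37 negative, and the assembly factor median was 0.15. None of the markers passed the limma test, and their part in the complex I values was not tested.

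**Figure D4:**
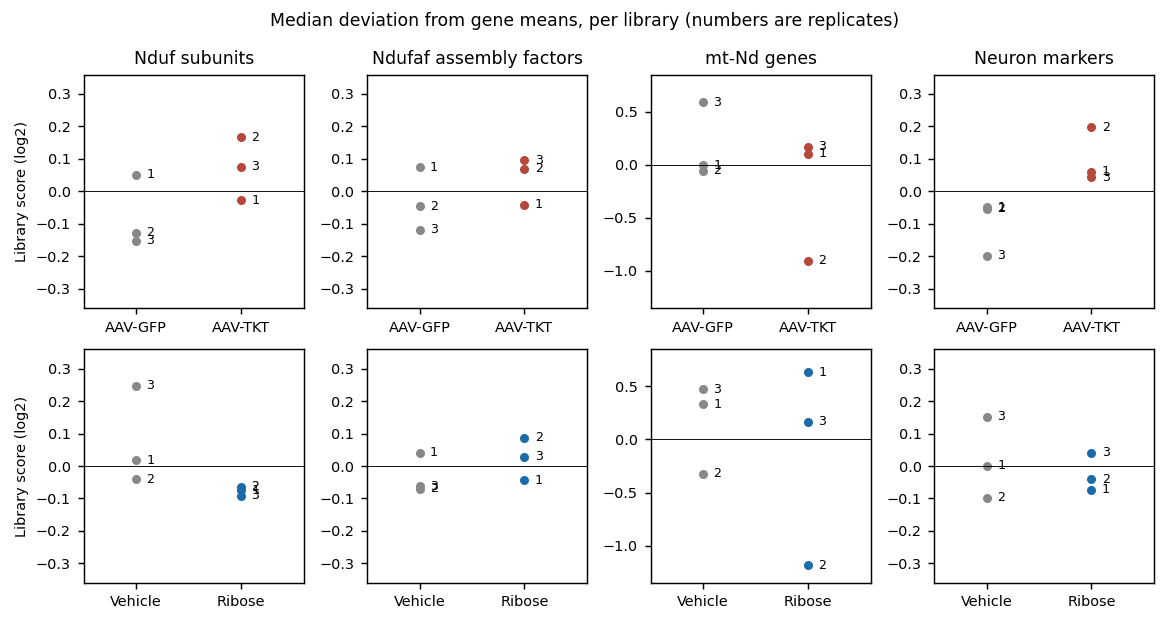
Median deviation of log2(FPKM + 1) from gene means per library (points, with replicate numbers) for the Nduf subunits, the Ndufaf assembly factors, the 7 mt-Nd genes and the 10 neuron markers, in the AAV (top) and ribose (bottom) experiments. Subunit scores overlap between AAV-GFP and AAV-TKT, Vehicle replicate 3 stands at 0.25 for the subunits, and the mt-Nd scores of AAV-TKT replicate 2 and Ribose replicate 2 are the lowest, at -0.91 and -1.19.

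The AAV-TKT difference was then set against the ribose difference gene by gene, in a fit of all 12 libraries over the 12853 genes of both tables. Subunit genes had a more positive estimate for AAV-TKT than for ribose in 36 of 37 cases, against 58.6% of all genes tested (41.4% were negative), with a median difference of 0.26 against 0.053. Assembly factors were positive in 2 of 8 (Ndufaf1 and Ndufaf7), with a median of -0.11. None of the 45 members passed a limma adjusted p of 0.05, where 0.00778% of all genes did, and 10 had an unadjusted p under 0.05, all positive, against 4.22% of all genes positive and 2.62% negative. The smallest p belonged to Ndufb7 (difference 0.59, SE 0.175, 95% interval 0.20 to 0.97), Ndufs5 (0.62, SE 0.188), Ndufa3 (0.63, SE 0.193) and Ndufb10 (0.56, SE 0.181), with limma adjusted p between 0.624 and 0.669. In the AAV experiment Ndufb7 was at 46.2, 35.5 and 38.5 FPKM in AAV-GFP and 43.4, 47.0 and 48.1 FPKM in AAV-TKT and Ndufs5 at 82.0, 65.7 and 68.3 FPKM in AAV-GFP and 67.8, 94.4 and 84.6 FPKM in AAV-TKT, both with overlapping groups. The assembly factor with the largest difference was Ndufaf5 (-0.37, SE 0.206, limma adjusted p = 0.767).

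Of the 45 members, 35 had a positive estimate in the AAV experiment and a negative one with ribose, 5 were positive in both, 4 negative in both and 1, Ndufaf5, negative in the first and positive in the second. The experiments share no library. Within the set, the size of the AAV estimate said little about the size of the ribose estimate (Pearson's r = 0.048 and Spearman's rho = 0.12 over 45 genes, which share their libraries and are described without a test).

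**Figure D5:**
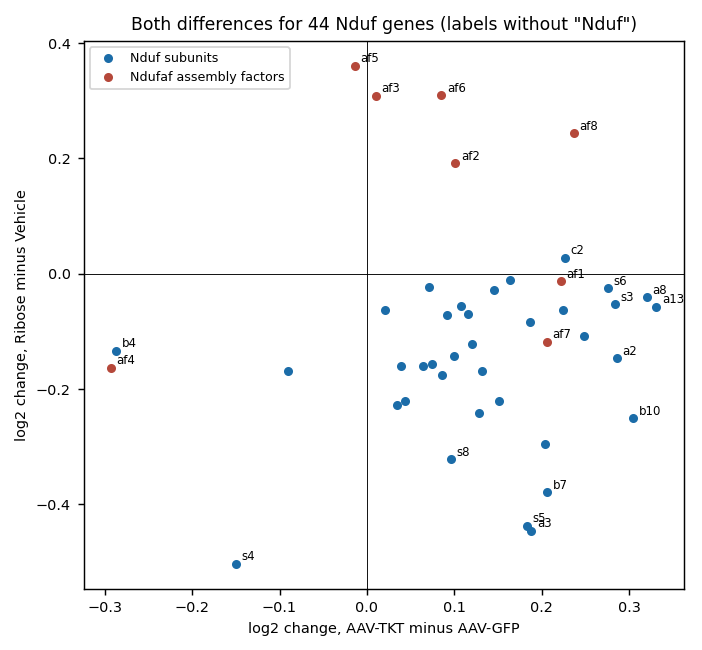
Log2 change with ribose (vertical) against log2 change with AAV-TKT (horizontal) for 44 Nduf genes, subunits in blue and assembly factors in red. Most subunits lie in the lower right quadrant (positive with AAV-TKT, negative with ribose), and the assembly factors with positive ribose values lie above them.

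The rest of the complex I machinery was measured through lists of further genes. Of 12 assembly factors without an Nduf name 11 were measured, and 7 had positive log2 changes in AAV-TKT (median 0.063). Timmdc1, which helps to join membrane arm parts, was at 20.7 ± 0.989 FPKM in AAV-GFP and 24.6 ± 0.992 in AAV-TKT (SD, n = 3, log2 change 0.24), and Dmac1, a distal arm factor, at 18.6 ± 1.58 and 21.7 ± 0.817 FPKM (log2 change 0.22). Both were among 5 of the list that did not overlap between groups, all higher, where 11.3% of all genes were separated upward and 7.2% downward. With ribose 6 of 11 were positive (median 0.047) and none was separated. The factor with the smallest p there was Ecsit, at 15.8 ± 0.748 and 13.6 ± 1.78 FPKM (log2 change -0.22). No gene of the list passed the limma test in either experiment.

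The 7 mt-Nd genes, the mitochondrially encoded subunits, had the opposite sign to the nuclear ones in AAV-TKT. All 7 had negative log2 changes there (median -0.34) and all 7 were negative with ribose (median -0.50), with 0 passing the limma test in either. Over all genes tested, 46.3% were negative in AAV-TKT and 55.2% with ribose. In the ribose experiment mt-Nd3 lay near the floor, at 2.88 ± 4.99 FPKM in Vehicle (SD, n = 3) and 0 in Ribose. The median deviation of the mt-Nd genes was lowest in AAV-TKT replicate 2 (-0.91) and highest in AAV-GFP replicate 3 (0.59), and ran from -1.19 in Ribose replicate 2 to 0.63 in Ribose replicate 1, with the groups overlapping in both experiments. AAV-TKT replicate 2, the lowest for mt-Nd genes, was the highest for nuclear subunits. Mitochondrial transcripts took 0.635% of the FPKM outside Rn7s2 in that library, against 1.18% to 2.03% in the other AAV libraries.

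Nuclear genes of the other respiratory complexes had medians of the same sign as the complex I subunits in AAV-TKT: 0.14 for complex II (8 of 8 positive), 0.14 for complex III (9 of 9), 0.12 for complex IV (8 of 10) and 0.14 for ATP synthase (12 of 15). With ribose the medians were -0.026 for complex II (3 of 8 positive), -0.11 for complex III (1 of 9), -0.20 for complex IV (0 of 10) and -0.16 for ATP synthase (3 of 15). Among genes that make ubiquinone, the electron acceptor of complex I, 11 of 13 were positive in AAV-TKT (median 0.15), led by Coq9 at 11.1 ± 0.328 and 14.8 ± 2.46 FPKM (SD, n = 3, log2 change 0.38), and 4 of 13 with ribose (median -0.047). The 15 regulators of mitochondrial biogenesis had medians of 0.11 (10 positive) and 0.026 (9 positive), with Polg, the mitochondrial DNA polymerase, at 0.28 in AAV-TKT and Gabpa, a subunit of nuclear respiratory factor GABP, at 0.42 with ribose. None of these genes passed the limma test in either experiment.

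Several members share sequence with other genes, which counting could split. Of the 46 members, 31 had under 10% of the 31-base words of their transcripts in transcripts of other genes and 1, Ndufs3, had over 50%, most of it with the pseudogene Gm12251 (45.8%). Ndufb4 shared 38.3% with its processed copy Ndufb4c, Ndufs5 26.5% with BC002163, and Ndufa13 28.3% with Tssk6, which lies on the opposite strand of the same locus. Exons of 17 members overlapped a gene on the opposite strand, and the sources used here do not say whether counting used strand. Exons of 3 members, Ndufb2, Ndufb8 and Ndufb9, overlapped a gene on the same strand, which the use of strand would not resolve. Ndufb9 shared 25.5% of its words with its same-strand neighbour Gm49356. Values of these genes are uncertain to that extent. Among the 22 tested subunit genes under 10%, 21 were positive in AAV-TKT (median 0.14) and 21 negative with ribose (median -0.15).

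The members lie on 17 chromosomes. On GRCm38, Ndufa13 spans chr8:69894180-69902558, Ndufs7 chr10:80249121-80256794, Ndufb10 chr17:24722060-24724478, Ndufs5 chr4:123712710-123718202, Ndufs4 chr13:114287795-114388258, Ndufs8 chr19:3908863-3912774, Ndufaf4 chr4:24898083-24905001 and Ndufaf5 chr2:140170649-140203689. Which exons or transcripts the FPKM of each gene summarises is not stated in the sources used here. The members are short genes in transcript length, with a median of 1644 exonic bases against 4625 for the protein-coding genes tested in the AAV table.

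Because the subunit genes leaned to one side in each experiment, their promoters were read for motifs of factors known to act on respiratory genes. RefSeq windows on GRCm38.p6, the 250 bases before the gene's start, were found for 40 of the 46 members, and both strands were searched. For a member the window nearest its annotated start was taken, and for the 27025 genes set beside them the first window listed. Those genes were not restricted to protein-coding ones, so the shares are not strictly like for like. The core CGCATGCG of the NRF1 motif was in 3 of 40 (7.50%, Ndufa8, Ndufa11 and Ndufaf4), against 1.58% of 27025 genes. The ETS motif CCGGAAG, as read by GABP, was in 5 (12.5%, Ndufb6, Ndufb7, Ndufs3, Ndufaf1 and Ndufaf8), against 7.05%. The NFY motif CCAAT was in 14 (35.0%, against 34.5%), and the YY1 motif AAGATGGC and the ERR motif TCAAGGTCA were in 0, against 1.59% and 0.366%. A match describes letters in this window and is no measure of binding. The stretches printed here run 5′ to 3′ on the gene's strand and end at the base before the start, with motif letters in capitals, and are cut where an exon of a neighbouring gene begins. The first pair holds the NRF1 core, and Ndufs8 and Ndufaf5 are a subunit and an assembly factor that were separated in opposite directions with ribose.
Ndufa11, chr17:56717686-56717761, plus strand: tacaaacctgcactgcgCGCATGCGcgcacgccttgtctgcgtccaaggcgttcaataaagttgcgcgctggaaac
Ndufaf4, chr4:24897833-24898082, plus strand: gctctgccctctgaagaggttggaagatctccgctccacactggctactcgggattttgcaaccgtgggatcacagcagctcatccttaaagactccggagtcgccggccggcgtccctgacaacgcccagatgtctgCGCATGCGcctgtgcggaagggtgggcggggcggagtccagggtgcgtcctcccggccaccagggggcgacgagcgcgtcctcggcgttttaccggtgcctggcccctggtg
Ndufs8, chr19:3912775-3913024, minus strand: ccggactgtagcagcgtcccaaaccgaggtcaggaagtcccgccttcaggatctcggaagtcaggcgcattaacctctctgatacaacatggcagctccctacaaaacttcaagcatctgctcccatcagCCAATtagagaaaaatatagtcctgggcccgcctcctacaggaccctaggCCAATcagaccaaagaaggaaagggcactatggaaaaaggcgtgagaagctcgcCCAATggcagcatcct
Ndufaf5, chr2:140170565-140170645, plus strand: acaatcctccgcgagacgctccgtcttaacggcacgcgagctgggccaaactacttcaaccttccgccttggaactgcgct

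The NRF1 core begins 59 bases before the start in Ndufa11, 112 bases in Ndufaf4 and 9 bases in Ndufa8. These genes did not behave alike: Ndufa8 was separated upward in AAV-TKT, Ndufa11 was at 113, 97.8 and 98.4 FPKM in AAV-GFP and 102.7, 124 and 116 FPKM in AAV-TKT, overlapping and mostly higher in AAV-TKT (log2 change 0.15), and Ndufaf4 was separated downward there. The Ndufs8 stretch holds CCAAT at 120, 70 and 16 bases before the start, and that of Ndufaf5 holds none of the 5 motifs. The Ndufa11 stretch ends upstream at an exon of Vmac and the Ndufaf5 stretch at an exon of Esf1.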

How the data were processed

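RNA-seq values of 12 libraries, 3 in each of 4 groups, were read from 2 deposited tables, 1 per experiment. The values are FPKM, computed by the authors. Per the labels' protocols, polyadenylated RNA was made into libraries with a directional kit. Per the submitters' processing notes, bcl2fastq 2.20, FastQC, Trim Galore and GRCm38 were used. The sources used here do not name the aligner, the counter, its strand setting, the annotation, the total behind the FPKM scale or the depth, so no counting interval is given, and levels were compared within a table only.

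GENCODE M21 supplied symbols for 13170 of the 13178 Ensembl identifiers of the AAV table and 21612 of the 21650 of the ribose table. The control columns of the ribose table carry a control name and were taken as Vehicle. Genes whose mean over the 6 libraries reached 1 FPKM (13178 and 13804) were tested on log2(FPKM + 1) with limma 3.58.1 in R 4.3.3 (intensity trend, Benjamini-Hochberg adjustment over all genes, threshold 0.05), so a fold change of a low gene is understated. The difference of effects was a contrast over all 12 libraries. An exact permutation test of 3 against 3 cannot go below 0.1 and was not used. Differences are treated minus control, and separated means that every library of one group lies beyond every library of the other. The fit was tested on simulated data.

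The members and all gene lists were chosen with earlier results of these data known, so lists are described by counts and medians without a test. Genes named were the core subunits, the Ndufaf genes, Ndufa4, Ndufa4l2, the 6 members of each sign with the smallest p per experiment, the 4 for the difference of effects, and up to 2 genes per other list. Members with the highest level, the largest spread or separated groups were named as a description. The values of 1 gene are counted in totals and medians but not reported here. Alternatives were pseudocounts of 0.1 and 0.5, no filter, a mean of 5 FPKM, quantile normalization, equal totals, median-of-ratios scaling, protein-coding genes alone, removal of a trend with length (loess span 0.3), a replicate block, weights per library and each library left out. A pair of omissions was added after seeing the data.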

Additional observations from a re-analysis of the deposited data

How the results depend on the processing

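No Nduf gene passed the limma threshold under any alternative, where the smallest adjusted p was 0.0807 (with weights per library). The subunit median kept its sign under all of them. With single libraries left out it was 0.086 to 0.21 in AAV-TKT and -0.19 to -0.049 with ribose. Over other settings it was 0.063 to 0.15 and -0.16 to -0.089, beside all-gene medians of -0.048 to 0.034 and -0.037 to 0.022. At fewest 29 of 37 subunit genes were positive there in AAV-TKT, and 30 negative with ribose. Without AAV-TKT replicate 2 and AAV-GFP replicate 3, chosen after seeing the data, the AAV-TKT median was 0.071, with 27 of 37 positive. The filter at 5 FPKM and the replicate block left both subunit medians as they were, as did no filter in AAV-TKT. The assembly factor median was 0.023 to 0.18 in AAV-TKT and 0.049 to 0.31 with ribose with single libraries left out, 0.10 with ribose under weights per library, and 0.080 without Vehicle replicate 2 and Ribose replicate 2, a pair chosen after seeing the data.

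Over all genes, the 2 calls of AAV-TKT became 5 with a pseudocount of 0.1, 4 with a mean of 5 FPKM, 4 with equal totals, 8 with protein-coding genes alone, 23 with weights per library, 3 to 41 with single libraries left out, and 5 without AAV-TKT replicate 2 and AAV-GFP replicate 3, also chosen after seeing the data. The single call with ribose became 2 with a pseudocount of 0.5, with equal totals and with the length trend removed, 0 with protein-coding genes alone, 1 to 4 with single libraries left out and 6 without the added ribose pair. The single call for the difference of effects became 2 with a pseudocount of 0.1 and with the length trend removed, 1 to 3 with single libraries left out, and 0 and 12 without the added AAV and ribose pairs. The cause was not tested.

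Of 48 gene results named with their comparison, 35 kept their sign under every alternative. No filter, the filter at 5 FPKM and the replicate block leave a gene's log2 change as it was, so they could not alter a sign. In AAV-TKT, values of the other sign were found for Ndufa4 (-0.036 with equal totals, -0.025 with quantile normalization, -0.026 with protein-coding genes alone, -0.032 without the added pair), Ndufaf3 (-0.056, -0.0047, -0.047 and -0.062 under the same, -0.014 with median-of-ratios scaling, -0.022 without the length trend), Ndufv2 (-0.031, -0.035, -0.021 and -0.14 under the same as Ndufa4) and Ndufaf6 (-0.059 with weights). With ribose they were found for Ndufaf1 (0.0033 with equal totals, 0.0053 with quantile normalization, 0.038 with protein-coding genes alone, 0.013 without the length trend), Ndufv1 (0.0065, 0.066, 0.043 and 0.025 under the same), Ndufc2 (-0.047 without the length trend) and Ndufs3 (0.00031 with protein-coding genes alone). With libraries left out, singly or as the added pairs, values in AAV-TKT ran from -0.24 to 0.038 for Ndufa12, -0.032 to 0.10 for Ndufa4, -0.00087 to 0.16 for Ndufaf2, -0.13 to 0.14 for Ndufaf3, -0.12 to 0.075 for Ndufaf5, -0.048 to 0.23 for Ndufaf6, -0.00097 to 0.43 for Ndufaf8 and -0.14 to 0.16 for Ndufv2. With ribose they ran from -0.099 to 0.069 for Ndufaf1, -0.033 to 0.52 for Ndufaf8, -0.073 to 0.11 for Ndufc2 and -0.12 to 0.075 for Ndufv1.

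Groups share replicate numbers, but same-numbered libraries correlated at 0.033, 0.071 and -0.014 in the AAV experiment and 0.042, 0.36 and 0.16 in the ribose experiment, where other pairs ran from -0.10 to 0.080 and -0.26 to 0.14. Not every same-numbered pair exceeded 0.1, and not every library correlated best with its own number, so the numbers were not taken to pair libraries, and a shared day or litter is not stated. With a replicate block the AAV-TKT calls over all genes went from 2 to 0, and the smallest adjusted p of an Nduf gene was 0.352 in AAV-TKT and 0.582 with ribose. The FPKM tables give no depth, which limits the lowest members, such as Ndufaf2 and Ndufaf6.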

Other observations

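The Nduf symbols Ndufb4c and Ndufb1-ps stand outside the protein-coding set, and neither passed the limma test in either experiment. Ndufb4c, annotated as a processed pseudogene of the distal arm subunit Ndufb4, was listed at 54.7, 37.2 and 58.1 FPKM in AAV-GFP and 53.2, 52.4 and 62.2 FPKM in AAV-TKT, above Ndufb4 itself in every library of that table. In the ribose table it was at 109, 101.1 and 124 FPKM in Vehicle and 104.5, 100.8 and 77.5 FPKM in Ribose, against 14.2 ± 4.16 and 12.8 ± 3.75 FPKM for Ndufb4 (SD, n = 3). Since 38.3% of the 31-base words of Ndufb4 also occur in Ndufb4c transcripts, how reads were divided between the copies was not tested. Its log2 changes were 0.18 (SE 0.166) in AAV-TKT and -0.25 (SE 0.145) with ribose, where those of Ndufb4 were -0.29 and -0.13.

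Ndufb1-ps, annotated as a non-coding RNA from a bidirectional promoter, was at 9.07 ± 1.38 FPKM in AAV-GFP and 10.8 ± 1.14 in AAV-TKT (SD, n = 3), with overlapping groups and a log2 change of 0.24 (SE 0.123). It was at 8.82 ± 2.36 FPKM in Vehicle and 7.32 ± 3.92 in Ribose, also overlapping, with a log2 change of -0.33 (SE 0.392). Both genes thus had the sign of most subunit genes in each experiment.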
